A study of Mus musculus with 4 samples.

Results

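Endothelial tip cell genes were examined in the RNA-seq of primary mouse liver sinusoidal endothelial cells (LSECs). They are the 8 genes *Apln*, *Aplnr*, *Esm1*, *Pdgfb*, *Cxcr4*, *Igfbp3*, *Unc5b* and *Robo4*, a list of names matched by symbol among the 18373 genes of the deposited table. The study asked whether the long noncoding RNA *Airn* keeps LSECs differentiated in culture. Its 4 libraries came from cells of 8-week-old Balb/c mice, grown on collagen and sampled at day 3, after 48 h of siRNA. The NC group (2 libraries) received a control siRNA, and the siAirn group (2 libraries) received siRNA against *Airn*. All cells therefore went through isolation, plating and transfection, and no untransfected or freshly isolated cells were included. The labels number the libraries as biological replicates 1 and 2 of each group without saying which animals they came from, so p-values measure the spread between these libraries. The protocol text speaks of 2 separate siAirn, whereas the names of both libraries carry siAirn1, so the siRNA behind each library is not settled.

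In a growing vessel sprout, a tip cell leads with filopodia while stalk cells behind it divide and form the lumen. VEGF acting on VEGFR2 favours the tip state, and Dll4 on the tip cell restrains it in neighbours through Notch. Tip cells carry secreted factors (*Apln*, *Esm1*, *Pdgfb*, *Igfbp3*) and guidance or chemokine receptors (*Cxcr4*, *Unc5b*). *Aplnr*, the apelin receptor, is found mainly on neighbouring endothelium, and *Robo4*, an endothelial receptor that binds UNC5B, is known for stabilising vessels. Healthy LSECs are fenestrated and quiescent, and lose these features as they capillarize during fibrosis.

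The deposited estimated counts summed to between 17308382 and 18371959 per library. The 8 tip cell genes held from 0.185% to 0.278% of them. *Airn*, the target, was counted 7 and 3 times in NC replicates 1 and 2 and 11 and 9 times in siAirn replicates 1 and 2, too few to be tested or to check the labels. Its counts were not lower in the libraries labelled siAirn, and every direction here follows the labels. LSEC markers were present in all libraries, with a summed level of 3329 and 3352 CPM (counts scaled to a common library size) in NC and 2363 and 2113 in siAirn over 10 genes. Markers of stellate cells and pericytes (1110.2 to 1775 CPM over 10 genes) and of Kupffer cells (144 to 275 CPM over 10 genes) were present too. Hepatocyte markers were at 509.9 and 660.3 CPM in NC and 728 and 941 in siAirn over 8 genes. Of these, 7 were tested, all above 0 in log2 fold change. The test called 1 of them higher, where 8.27% of all genes tested were. No marker of these lists was at 0 in every library. In bulk RNA, fewer cells of a type and less RNA per cell cannot be told apart.

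Of the 8 tip cell genes, 2 fell in the libraries labelled siAirn, *Igfbp3* and *Robo4*. None rose, and 6 did not pass the test. A gene was called at a Benjamini-Hochberg adjusted p under 0.05 in edgeR's quasi-likelihood test over all 13628 genes tested, and all 8 passed the filter on low counts. The background is high, since 16.8% of all genes tested were called, 8.56% lower and 8.27% higher, so 2 of 8 is a modest number. The median log2 fold change of the 8 genes was -0.23, against 0.0013 for all genes tested. Both siAirn libraries lay below both NC libraries for *Igfbp3*, *Robo4* and *Pdgfb* and above them for *Unc5b*. Such a gap was seen for 31.9% of all genes tested in the lower direction and 30.9% in the higher. By the threshold of the study, a fold change over 1.4 with an unadjusted p under 0.05, *Igfbp3* was the only one of the 8 to pass, and 4.72% of all genes tested passed it in that direction.

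**Figure D1:**
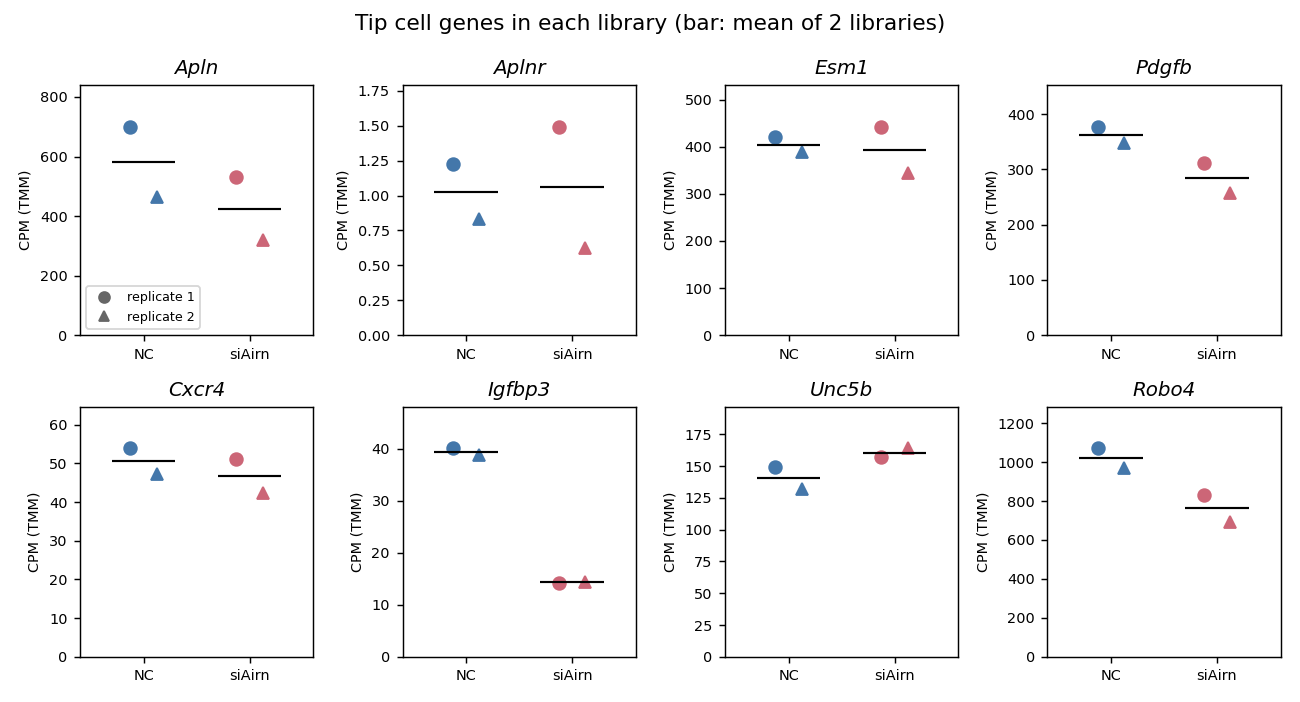
Expression of the 8 tip cell genes in each library, in CPM with TMM scaling on a linear axis from 0. Circles and triangles are replicates 1 and 2, blue for NC and red for siAirn, and bars are means of 2 libraries. *Igfbp3* is near 40 CPM in NC and near 14 in siAirn, and the *Apln* replicates of each group lie far apart.

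*Igfbp3* encodes a secreted protein that binds insulin-like growth factors and carries them in the circulation. It had 40.1 and 38.9 CPM in NC replicates 1 and 2 and 14.2 and 14.5 CPM in siAirn replicates 1 and 2, from 687, 703, 256 and 256 counts. The replicates of each group nearly coincided, and the groups lay far apart. The mean fell from 39.5 ± 0.872 to 14.3 ± 0.22 CPM (SD, n = 2 each), a 2.76-fold difference. On the log2 scale the change was -1.46 ± 0.09 (SE), with an adjusted p of 0.00235 by edgeR's quasi-likelihood test. Scaled to length, *Igfbp3* went from 17.3 to 6.48 FPKM (reads scaled to transcript length and library size), and the share of genes with a lower level than it went from 72.5% to 55.6%. Its log2 fold change stayed between -1.49 and -1.29 over all 14 alternatives. With NC replicate 2 left out the adjusted p was 0.0513 by edgeR, in a fit in which 0 of 13913 genes were called although 3106 had an unadjusted p under 0.05.

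The sequence upstream of *Igfbp3* is shown because the study centres on KLF2, a factor of the Krüppel-like family, whose members bind CACCC boxes. *Unc5b*, the tip cell gene with the largest positive log2 fold change, is set beside it for contrast. *Unc5b* did not pass the test (adjusted p = 0.133, edgeR). Sequences are those of the RefSeq promoter table for GRCm38.p6, which holds 6 of the 8 genes, and both are on the minus strand, 5′ to 3′, ending at the base before the transcript start. Capitals mark CACCC on either strand.

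Igfbp3, chr11:7213924-7214173: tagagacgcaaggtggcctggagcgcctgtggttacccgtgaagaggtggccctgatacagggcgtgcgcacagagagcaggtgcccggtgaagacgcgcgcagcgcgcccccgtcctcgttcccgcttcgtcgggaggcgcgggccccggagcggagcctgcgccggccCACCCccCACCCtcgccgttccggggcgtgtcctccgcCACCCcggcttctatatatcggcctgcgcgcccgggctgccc

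Unc5b, chr10:60831582-60831831: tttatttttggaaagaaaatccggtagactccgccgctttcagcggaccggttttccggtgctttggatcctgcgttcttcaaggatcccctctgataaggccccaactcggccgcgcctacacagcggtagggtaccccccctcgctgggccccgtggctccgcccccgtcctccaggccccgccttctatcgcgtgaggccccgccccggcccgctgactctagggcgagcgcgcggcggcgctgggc

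The *Igfbp3* window held 3 CACCC boxes, which begin 80, 73 and 42 bases before the start, and the *Unc5b* window held 0. Among the 32851 promoters of the table, 52.0% held at least 1 box in their 250 upstream bases and 6.92% held 3 or more. *Cxcr4* had 1 box, and *Apln* and *Esm1* had 0, as did *Robo4*, the other gene called lower in siAirn. The GC box GGGCGG, which the related SP factors and some Krüppel-like factors bind, had another distribution on both strands. It was found 3 times for *Cxcr4*, 2 times for *Unc5b*, 1 time for *Apln* and 0 times for *Igfbp3*, *Esm1* and *Robo4*, and 32.7% of the promoters held it. The hypoxia response core GCGTG was found 2 times for *Igfbp3*, 1 time each for *Unc5b*, *Esm1* and *Cxcr4* and 0 times for *Apln* and *Robo4* (28.2% of promoters), and its variant ACGTG for none of the 6 genes (16.6%). The ETS core GGAA was found 1 to 3 times in each (93.4%). A match describes these letters only, and binding was not measured in these libraries. The *Igfbp3* window lies upstream of all its GENCODE M21 transcripts, but inside the span that RefSeq gives the gene.

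Other insulin-like growth factor binding proteins were measured alongside. *Igfbp7*, an abundant secreted protein of endothelial cells, fell from 1469.7 ± 139 to 912 ± 45.5 CPM (log2 fold change -0.69, adjusted p = 0.00667, edgeR), and with GC content and length as an offset the value was -0.45 (adjusted p = 0.0125, edgeR). *Igfbp4*, which binds and restrains IGFs, fell from 248 ± 2.72 to 159 ± 16.6 CPM (log2 fold change -0.65, adjusted p = 0.00775, edgeR). *Igfbp2* was low, at 2.84 CPM in NC and 2.38 in siAirn, and did not pass (adjusted p = 0.534, edgeR). *Igfbp1*, *Igfbp5* and *Igfbp6* had at most 11 counts in any library and were not tested. The log2 fold change of *Igfbp3* was the largest in size of these 3 genes, a difference between genes that was not tested. Per length, there were 76.5 and 91.3 *Igfbp7* transcripts for each of *Igfbp3* in NC and 139 and 147 in siAirn, ratios of FPKM within a library whose difference was not tested. The growth factor *Igf1* was at 14.1 and 14.6 CPM in NC and siAirn and its receptor *Igf1r* at 117 and 144 CPM, and neither passed (adjusted p = 0.898 and 0.0606, edgeR). Markers of several cell types were lower beside *Igfbp3*. All 10 LSEC markers were lower without overlap between the groups, 8 of them passed the test, and their median log2 fold change was -0.58. All 10 Kupffer cell markers were lower, 6 of them passed, and their summed level was 226 and 275 CPM in NC against 176 and 144 in siAirn. Among all genes tested, 8.56% were called lower and 31.9% were lower without overlap. The part of either marker list in the *Igfbp3* result was not tested.

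*Robo4* was the most abundant of the 8 genes per length, at 348 ± 23.8 FPKM in NC and 248 ± 32.3 in siAirn (SD, n = 2 each). Its levels were 1070.3 and 972 CPM in NC and 829 and 695 CPM in siAirn, and the groups did not overlap. The mean fell by 25.4%. On the log2 scale this was -0.42 ± 0.10 (SE), at an adjusted p of 0.0289 by edgeR. The value was -0.35 without NC replicate 1, -0.49 without NC replicate 2, -0.56 without siAirn replicate 1 and -0.30 without siAirn replicate 2. Each of these fits leaves 1 library in a group, assumed to vary like the others. The log2 fold change lay between -0.56 and -0.30 over all alternatives.

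*Unc5b*, a netrin receptor that partners ROBO4, had 149 and 132 CPM in NC and 157 and 164 CPM in siAirn. Both siAirn libraries were higher, but the gap between the groups was smaller than the step between the NC libraries. The log2 fold change was 0.19 (standard error 0.08, 95% interval 0.01 to 0.38), and the adjusted p 0.133 by edgeR, so the gene did not pass. Without NC replicate 2 the value was 0.10. There were 14.2 and 14.7 *Robo4* transcripts for each *Unc5b* transcript in NC, and 9.73 and 7.84 in siAirn, as ratios of FPKM. The ratio was lower in both siAirn libraries, a difference that was not tested.

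Ligands and relatives of the 2 guidance receptors differed in both directions. *Ntn4*, a basement membrane netrin, fell from 86.2 ± 0.868 to 47.2 ± 6.31 CPM (log2 fold change -0.87, adjusted p = 0.00574, edgeR). *Ntn1*, the classical netrin, rose from 33.9 ± 2.91 to 49.9 ± 9.27 CPM (log2 fold change 0.55, adjusted p = 0.0345, edgeR). *Robo2*, a Slit receptor known from axon guidance, rose from 31.7 ± 2.90 to 63.9 ± 6.75 CPM (log2 fold change 1.01, adjusted p = 0.00508, edgeR). *Robo1*, its close relative, was at 67.2 and 71.3 CPM and did not pass (adjusted p = 0.383, edgeR). *Unc5a* fell from 9.07 to 5.67 CPM (log2 fold change -0.68, adjusted p = 0.0383, edgeR). *Flrt2*, a membrane ligand of UNC5 receptors, went from 56.6 to 66.6 CPM (log2 fold change 0.24, adjusted p = 0.0472, edgeR), but its sign turned to -0.02 once GC content and length entered the fit as an offset. With the same offset *Ntn1* (0.54, adjusted p = 0.059) and *Unc5a* (-0.57, adjusted p = 0.081) did not pass by edgeR, with changes of similar size to those above. Without siAirn replicate 2 the value of *Ntn1* was 0.35 (adjusted p = 0.0698, edgeR), and by limma on log2(FPKM + 1) that of *Unc5a* was -0.42 (adjusted p = 0.0712). *Flrt3* was at 7.94 and 6.03 CPM and did not pass (adjusted p = 0.17, edgeR). The Slit ligands were near the floor, with 13 to 27 counts for *Slit2* and 4 to 15 for *Slit3*, and *Unc5c* had at most 4 counts.

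*Apln* encodes apelin, a peptide ligand that tip cells secrete. It had 700 and 464 CPM in NC and 530.2 and 318 CPM in siAirn, from 5631 to 12002 counts. Replicate 1 was 1.51 times replicate 2 in NC and 1.67 times in siAirn, more than the difference of 1.37 times between the group means, and the groups overlapped. The log2 fold change was -0.46 with a standard error of 0.26 and an adjusted p of 0.263 by edgeR's quasi-likelihood test. It was -0.13 without NC replicate 1 and again without siAirn replicate 2, -0.73 without NC replicate 2, and -0.87 without siAirn replicate 1, where it passed (adjusted p = 0.00648, edgeR).

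*Aplnr*, its receptor, was barely detected, with 21 and 15 counts in NC and 27 and 11 in siAirn. This is 0.295 ± 0.078 FPKM in NC and 0.31 ± 0.184 in siAirn. The log2 fold change of 0.05 had a 95% interval from -1.16 to 1.25 (adjusted p = 0.96, edgeR), so no difference was detectable at this depth. Per length, between 406 and 654 *Apln* transcripts were counted for each *Aplnr* transcript, as ratios of FPKM over the 4 libraries. The ligand ranked among the most abundant transcripts of these cultures, above 97.5% of all genes in NC, and its receptor above 28.2%. *Apela*, the second apelin receptor ligand, had no entry under that symbol among the 18373 genes.

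*Pdgfb* encodes the growth factor by which endothelial cells recruit pericytes. It had 377 and 349 CPM in NC and 312 and 258 CPM in siAirn, with no overlap. The mean went from 363 ± 20.4 to 284.9 ± 38.2 CPM, or -0.35 ± 0.10 (SE) in log2 units. *Pdgfb* narrowly missed the threshold, with an adjusted p of 0.0533 by edgeR's quasi-likelihood test, and the processing decided its side. It passed by DESeq2's Wald test (adjusted p = 0.0102), with upper-quartile scaling (0.0473, edgeR) and with a stricter filter on low counts (0.0485, edgeR). The log2 fold change was -0.29 without NC replicate 1, -0.41 without NC replicate 2, -0.49 without siAirn replicate 1 and -0.22 without siAirn replicate 2. With an offset for GC content and length the log2 fold change was -0.21 (adjusted p = 0.209, edgeR).

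The receptors of this ligand are known from mural cells. *Pdgfrb* was at 68.1 ± 7.54 CPM in NC and 96.6 ± 25.4 in siAirn and did not pass (adjusted p = 0.0861, edgeR). *Pdgfra* was at 33.8 and 33.7 CPM (adjusted p = 0.972, edgeR) and the related ligand *Pdgfa* at 70.2 and 71.0 CPM (adjusted p = 0.889, edgeR). Markers of stellate cells, pericytes and fibroblasts, a list that includes *Pdgfrb*, all had log2 fold changes above 0. Of these 10 markers 3 passed, where 8.27% of all genes tested were called higher. The summed level of the markers was 1110.2 and 1314 CPM in NC and 1360 and 1775 in siAirn.

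*Esm1* encodes endocan, a secreted proteoglycan used as a tip cell marker. It had 419.95 and 389 CPM in NC and 443 and 345 CPM in siAirn, so the siAirn libraries lay on either side of both NC libraries. Its FPKM, 201 ± 11.3 in NC and 202 ± 37.3 in siAirn, placed it above 97.7% and 97.9% of all genes. The log2 fold change was -0.04, with a 95% interval from -0.32 to 0.24 (adjusted p = 0.842, edgeR).

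*Cxcr4*, the receptor for the chemokine CXCL12, had 53.9 and 47.3 CPM in NC and 51.1 and 42.2 CPM in siAirn. The groups overlapped, and the log2 fold change was -0.12 with a 95% interval from -0.38 to 0.15 (adjusted p = 0.507, edgeR). Its ligand *Cxcl12* rose from 761 ± 66.1 to 1084 ± 212 CPM (log2 fold change 0.51, adjusted p = 0.0405, edgeR). That call was lost at an equal log2 value of 0.51 by DESeq2's Wald test (adjusted p = 0.084) and at 0.42 with the GC content and length offset (0.0891, edgeR). The log2 value was 0.42 without NC replicate 1, 0.60 without NC replicate 2, 0.70 without siAirn replicate 1 and 0.30 without siAirn replicate 2. Stellate cell markers, with the values given above, moved in the same direction as *Cxcl12*, and their part in it was not tested. The scavenging receptor *Ackr3* was low, at 4.92 and 4.69 CPM, and did not pass (adjusted p = 0.875, edgeR).

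**Figure D2:**
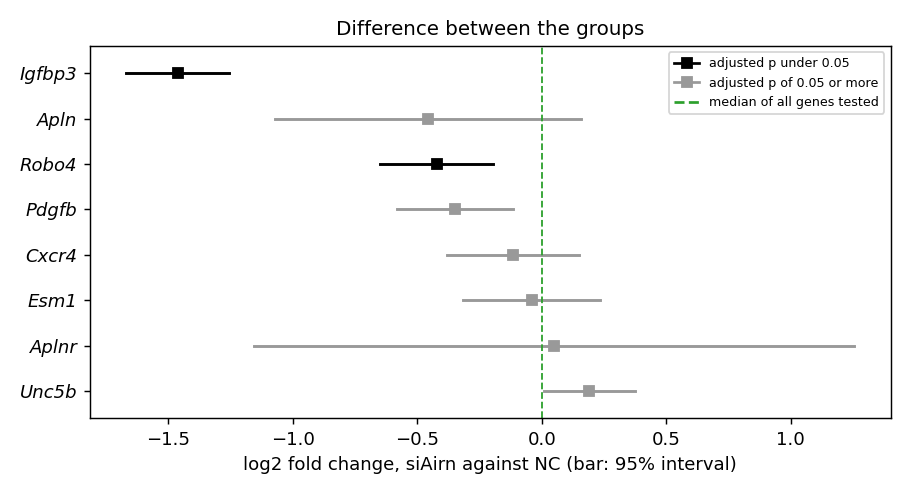
Log2 fold change of the 8 tip cell genes, siAirn against NC, from edgeR's quasi-likelihood fit, with 95% intervals. Black marks genes with an adjusted p under 0.05 (*Igfbp3* at -1.46 and *Robo4* at -0.42), grey the other 6, and the dashed line the median of all genes tested (0.0013).

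Ordered by level per length in NC, *Robo4* (348 FPKM) came first, followed by *Esm1* (201), *Apln* (189.8), *Pdgfb* (143), *Cxcr4* (29.4), *Unc5b* (24.1), *Igfbp3* (17.3) and *Aplnr* (0.295). The ranges of *Esm1* and *Apln* overlapped between libraries, and all other neighbours were apart, *Apln* and *Pdgfb* only just (150.8 and 149.9 FPKM at their nearest). In siAirn the order of the means was the same for the first 4 genes, but the ranges of neighbours among these 4 overlapped. *Unc5b* (28.3 FPKM) lay within the range of *Cxcr4* (25.1 to 30.8), and *Igfbp3* (6.48) and *Aplnr* (0.31) stayed last.

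Pan-endothelial markers were lower in the libraries labelled siAirn, with all 10 below 0 and a median log2 fold change of -0.55. Of them, 8 were called lower, where 8.56% of all genes tested were. The summed level of these markers was 10438 and 9993 CPM in NC and 7345 and 6462 in siAirn. Against this sum, *Igfbp3* was still lower in both siAirn libraries, with 1.93 and 2.24 units per 1000 against 3.84 and 3.89 in NC. On this scale 1.85% of all genes tested were lower without overlap. The ratio uses the same counts over a sum that fell, so it is not a separate test of *Igfbp3*. Among LSEC markers, *Clec4g* (log2 fold change -1.33), *Dnase1l3* (-1.19), *Lyve1* (-0.84), *Fcgr2b* (-0.81) and *Oit3* (-0.61) also fell by more than the pan-endothelial median. The others of that list fell by less, such as *Stab2* (-0.25). The median log2 fold change of the 10 Kupffer cell markers was -0.74. *Robo4* was not lower against the pan-endothelial sum, with 103 and 97.3 per 1000 in NC and 113 and 108 in siAirn. *Esm1*, *Pdgfb*, *Cxcr4* and *Unc5b* were also higher without overlap, but so were 85.0% of all genes tested, so 5 of 8, *Robo4* included, is below the background share. *Apln* and *Aplnr* overlapped on this scale.

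**Figure D3:**
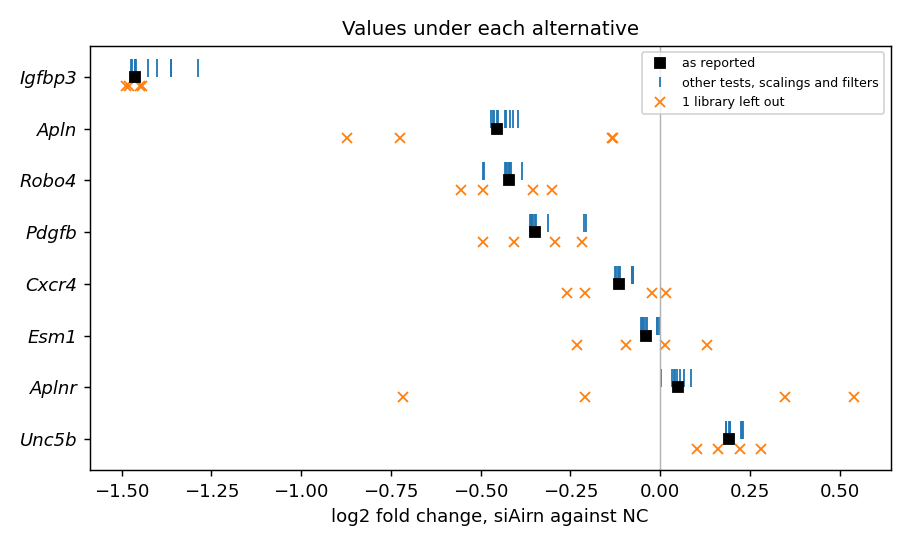
Log2 fold change of each tip cell gene as reported (black squares), under other tests, scalings, filters and corrections (blue ticks) and with 1 library left out (orange crosses). *Igfbp3* stays between -1.49 and -1.29, whereas *Aplnr* runs from -0.72 to 0.54 and *Apln* from -0.87 to -0.13.

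A wider list of 22 genes associated with tip cells went in both directions. In it, 2 rose, 4 fell and 16 did not pass, beside 8.27% higher and 8.56% lower among all genes tested, and the median log2 fold change was -0.14. *Lamb1*, a laminin chain, rose from 99.6 ± 9.11 to 164 ± 28.4 CPM (log2 fold change 0.72, adjusted p = 0.0142, edgeR). *Efnb2*, an ephrin of arterial and sprouting endothelium, rose from 41.5 ± 4.04 to 57.1 ± 4.04 CPM (0.46, adjusted p = 0.0227, edgeR). The genes that fell were *Inhbb*, an activin subunit (-0.88), *Flt4*, the VEGF-C receptor (-0.58), *Plod1*, a collagen-modifying enzyme (-0.36), and the basement membrane collagen *Col4a2* (-0.32), each with an adjusted p from 0.00683 to 0.0147 by edgeR. *Kdr*, which encodes VEGFR2, was at 591 ± 55.1 and 599.6 ± 67.1 CPM (log2 fold change 0.02, adjusted p = 0.901, edgeR). *Angpt2*, a Tie2 ligand of sprouting endothelium, was at 1195.7 ± 39.5 and 1023 ± 155 CPM and did not pass (adjusted p = 0.168, edgeR). *Dll4*, the Notch ligand of the tip cell, was at 50.3 and 46.1 CPM and did not pass (adjusted p = 0.533, edgeR).

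Of 10 stalk cell and Notch genes, 1 rose and 2 fell, where 16.8% of all genes tested were called in either direction, and the median log2 fold change was -0.05. *Jag1*, a Notch ligand of stalk cells, rose from 23.5 ± 0.783 to 34.0 ± 1.27 CPM (log2 fold change 0.53, adjusted p = 0.0126, edgeR). *Nrarp*, a Notch target that limits the pathway, fell from 101.5 ± 0.481 to 58.0 ± 10.97 CPM (-0.81, adjusted p = 0.0103, edgeR). *Tie1*, an endothelial receptor that is also in the pan-endothelial list, fell by 0.58 on the log2 scale (adjusted p = 0.0168, edgeR). *Hes1*, *Hey1* and *Hey2*, targets of Notch, did not pass, with adjusted p from 0.214 to 0.985 by edgeR. Of the 20 tested binding partners and close relatives of the tip cell genes, 4 rose, 4 fell and 12 did not pass, with a median of 0.07, against the same 16.8% called among all genes. With the GC content and length offset 4 of them were called, in a fit that called 1021 of 12845 genes, and without siAirn replicate 2 also 4, where 1446 of 13910 genes were called. Without NC replicate 1, or without NC replicate 2, edgeR called so few of all genes that neither fit says anything about the lists.

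**Figure D4:**
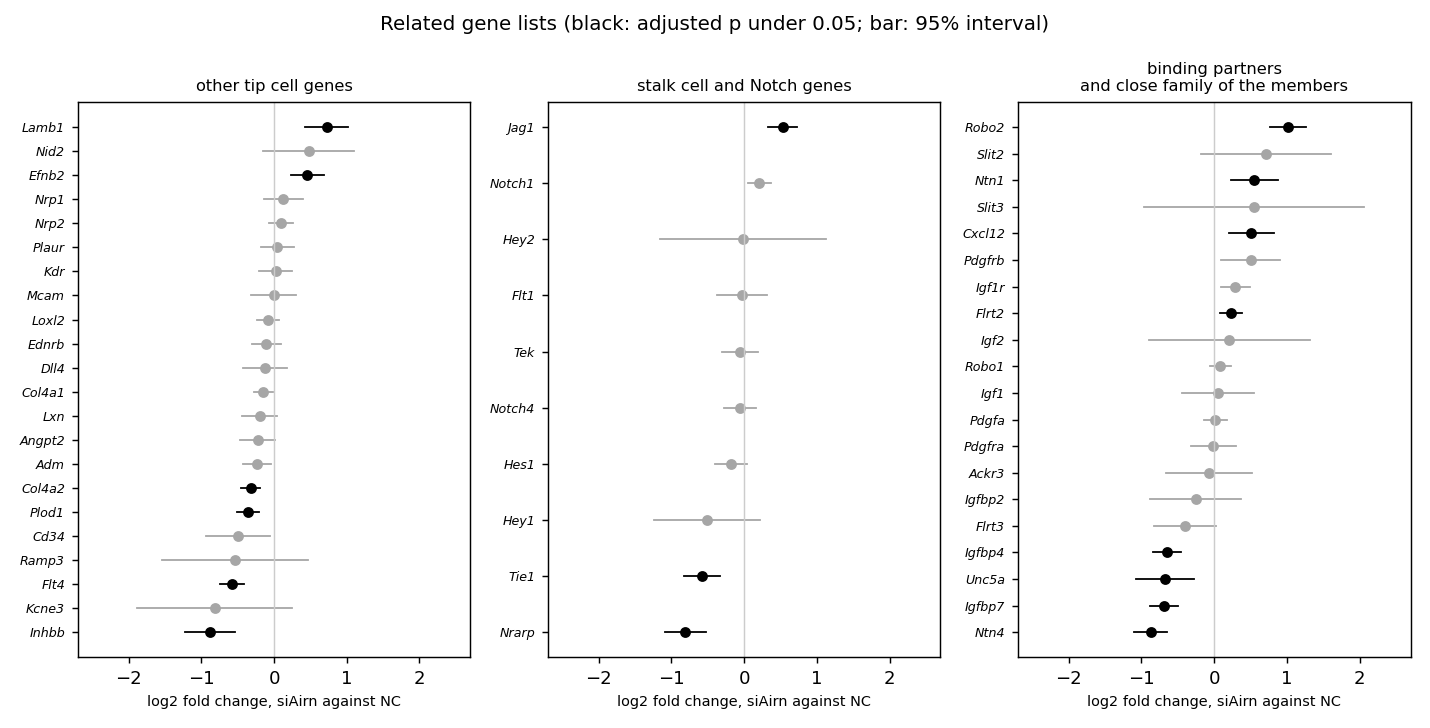
Log2 fold change, siAirn against NC, with 95% intervals for the tested genes of the 3 related lists, from edgeR's quasi-likelihood fit. Black marks an adjusted p under 0.05. Each list holds genes that rose and genes that fell, from *Robo2* at 1.01 to *Inhbb* at -0.88.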

How the data were processed

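RNA-seq of 4 libraries, 2 NC and 2 siAirn, was analysed by the groups in the labels. The authors deposited estimated counts and a second value per gene, read here as FPKM made by the authors because it scales with count, length and library total. The submitters' processing notes name RSEM, Bowtie2, BWA and the human build hg19, although the cells are mouse. Use of strand and filters are not given in the sources used here. Group means in the table were not used.

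Counts were rounded, scaled by TMM (factors 0.985 to 1.02), filtered by filterByExpr and compared in R 4.3.3 with edgeR 4.0.16 (quasi-likelihood, no covariate, Benjamini-Hochberg over 13628 genes). Standard errors and 95% intervals follow from its F statistic. The common biological coefficient of variation was 0.0754.

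Alternatives were DESeq2 1.42.0, limma 3.58.1 on log2(FPKM + 1) and log2(FPKM + 0.1) (minimum mean FPKM 1), 2 scalings, 2 filters, the study's threshold, a replicate block, a GC content and length offset (splines with 5 degrees of freedom, 94.3% of genes tested, GENCODE M21) and leaving out each library. Scripts were tested on simulated data.

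The tip cell genes and all lists were chosen with earlier results of these data known. Named by rule were the 8 genes, *Airn*, the genes of the 3 related lists with an adjusted p under 0.05 and 13 direct binding partners. Markers are given as counts and sums. Other listed genes, such as *Kdr*, were chosen after their values were seen. In GENCODE M21, no exonic base of the 8 genes lies under another gene, and at most 0.26% of their 50-base windows (*Unc5b*) are shared.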

Additional observations from a re-analysis of the deposited data

How the results depend on the processing

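*Igfbp3*, *Robo4*, *Pdgfb*, *Apln* and *Unc5b* kept their direction in all 14 alternatives. Genes called overall numbered 1021 with the GC content and length offset, 1358 by the study's threshold, and 0 to 2410 with 1 library left out (0 without NC replicate 2, 40 without NC replicate 1, 1446 without siAirn replicate 2), against 2294. For the 8 tip cell genes the number was 1 by the study's threshold and 0 to 4 with 1 library left out, against 2. The causes were not tested. Leaving out 1 library gave log2 fold changes of -0.72 to 0.54 for *Aplnr*, -0.23 to 0.13 for *Esm1* and -0.26 to 0.015 for *Cxcr4*. *Flrt2* turned to -0.025 with the GC content and length offset, with and without the replicate block. limma did not test *Aplnr*, whose mean FPKM was under 1.

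The labels give same-numbered libraries nothing in common but the number, and whether they shared a preparation is not stated. Their deviations from the group means correlated at 0.27. With a replicate block 4841 genes were called, among them 5 tip cell genes, and with the block and the offset together 4033 and 5. With the block, *Apln* (-0.47, adjusted p = 7.53e-05), *Pdgfb* (-0.35, adjusted p = 0.000476) and *Unc5b* (0.19, adjusted p = 0.0269) passed by edgeR in addition to *Igfbp3* and *Robo4*.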
